A study of Rattus norvegicus with 10 samples.

Results

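Nts, Tac1, Vgf, Adcyap1, Penk and Pdyn encode precursors of peptides that neurons store in secretory granules, and their RNA was followed here in the hypothalamus of weaning-stage rats that did or did not chew solid feed. The genes were taken by name, and every probe set that the annotation of the Rat Genome 230 2.0 array assigns to one of them alone was used. This gave 8 probe sets for 6 genes, of 31042 probe sets tested and 14217 genes named by the probe sets that name a single gene. Adcyap1 and Pdyn had 2 probe sets each, the other genes 1 each, and 0 probe sets named a member together with another gene.

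The animals were male Wistar rats with no transgene or drug. They entered the study at 3 weeks of age, the weaning stage, ate powdered feed during an acclimatization that all of them shared, and then received solid chow (C group, 5 rats) or powdered feed (P group, 5 rats) for 8 days, which brought them to 4 weeks of age. The comparison asks what mastication changes in the hypothalamus. Total RNA of each dissected hypothalamus was read on 1 array, and rats are named Chow 1 to Chow 5 and Powder 1 to Powder 5 after their labels. In such bulk RNA, fewer cells of a type and less RNA per cell cannot be told apart.

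A neuropeptide is made as a long precursor, cut by proteases inside the granule and released together with its sister fragments when the neuron fires strongly. Nts encodes neurotensin, a peptide of lateral and preoptic hypothalamic neurons with effects on body temperature and feeding, and Tac1 encodes substance P and neurokinin A. Vgf, a gene induced by nerve growth factor, encodes a granule protein that is itself cut into peptides and is needed for normal energy balance in mice. Adcyap1 encodes PACAP, the peptide that activates adenylate cyclase in the pituitary, and Penk and Pdyn encode the opioid precursors of the enkephalins and the dynorphins. Transcription of several such genes responds to cAMP and to neuronal activity through the cAMP response element and AP-1 sites, which bind CREB and the Fos and Jun proteins.

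The promoters of the members were read for these sites. RefSeq promoters of assembly GRCr8, each 300 bases long (250 before and 50 after the start of the gene), were found for 5 of the 6 genes: Nts, Tac1, Vgf, Adcyap1 and Pdyn. The motifs were searched on both strands, the full cAMP response element TGACGTCA, its core TGACG, which the full element contains on either strand, and the AP-1 site TGANTCA, where N is any base. The stretches with matches are printed in the direction of transcription, with the matches in capitals. They lie at chr7:39461032-39461120 on the minus strand for Nts, chr4:36645341-36645420 on the plus strand for Tac1 and chr12:25277065-25277144 on the minus strand for Vgf.
Nts: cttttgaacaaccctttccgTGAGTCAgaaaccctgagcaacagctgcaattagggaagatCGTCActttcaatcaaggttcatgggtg
Tac1: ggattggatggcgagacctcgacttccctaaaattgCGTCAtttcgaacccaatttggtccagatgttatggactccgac
Vgf: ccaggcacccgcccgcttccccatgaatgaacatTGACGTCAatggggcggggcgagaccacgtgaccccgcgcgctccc
Vgf held the full element at position -90 from the start, as did 1.83% of all 33469 promoters in the table (612 promoters). Nts held an AP-1 match at -212 and a core match on the opposite strand (read as CGTCA) at -171, and Tac1 held a core match on the opposite strand at -206. A core match occurred in 21.2% and an AP-1 match in 7.33% of all promoters. Adcyap1 and Pdyn held 0 matches to the motifs in this window. These matches describe letters only, and the arrays do not measure what binds there.

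The deposited values are log2 signals, which the authors summarized over the probes of each set by factor analysis, a method that leaves a probe set almost flat where its probes share no signal. Of all probe sets, 28736 (92.6%) had a standard deviation (SD) under 0.001 over the 10 rats, and correlations between arrays lay between 0.9970 and 0.9991. Of 15 listed markers of hypothalamic neurons 11 were matched to a probe set. Among them Pmch, the precursor of melanin-concentrating hormone, averaged 12.97 and Avp, the vasopressin gene, 11.89, while Pomc (6.75), Nr5a1 (7.03) and Otp (6.25) were flat. The check of the tissue label thus rests on the 7 genes with an SD above 0.1, which are peptide genes and Hdc, the histidine decarboxylase gene. Chow 1 stood farthest from the other arrays, at a mean distance of 0.00228 (1 minus the Pearson correlation), against 0.00122 to 0.00195 for the other 9 rats. The list of 15 leptomeningeal fibroblast genes, which mark the membranes around the brain, averaged 0.84 above the 10-rat mean in Chow 1 and 0.68 above it in Chow 4. The list of cortical and hippocampal neurons, of which 5 genes varied, averaged 0.66 in Chow 1 but only -0.15 to 0.0017 in Chow 2 to Chow 5, against -0.16 to -0.016 among P rats.

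Of the members, Nts, Tac1 and Vgf were called lower in the C group and Adcyap1 was called higher, while Penk and Pdyn were not called. A call here means a false discovery rate (FDR) below 0.05 by rank products. These rank the 25 differences between a C and a P rat over all probe sets and compare the geometric mean rank with permuted arrays. Calls of lower probe sets thus took 3 of 8 members (37.5%), against 0.818% of all probe sets, and calls of higher ones 1 of 8 (12.5%), against 0.941%. The method ranks by the size of a difference without weighing the spread of the probe set, so that a member that varies at all outranks the flat majority. When only the 2162 probe sets with an SD above 0.01 were ranked, which kept 6 of the 8 members, 2 probe sets were called higher and 5 lower, and 0 of them were members (smallest member FDR 0.915). By limma, 0 of 8 members passed an adjusted p below 0.05, as did 0 of all probe sets (0%, smallest adjusted p = 0.986 over all probe sets). At an unadjusted p below 0.05 limma held 2 members and 1100 probe sets in all (3.54%). The median C minus P difference of the 8 members was -0.018, beside -2.72e-06 over all probe sets tested. These medians are not alike, since 92.6% of all probe sets were flat, which holds their median near 0, against 2 of the 8 members.

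**Figure D1:**
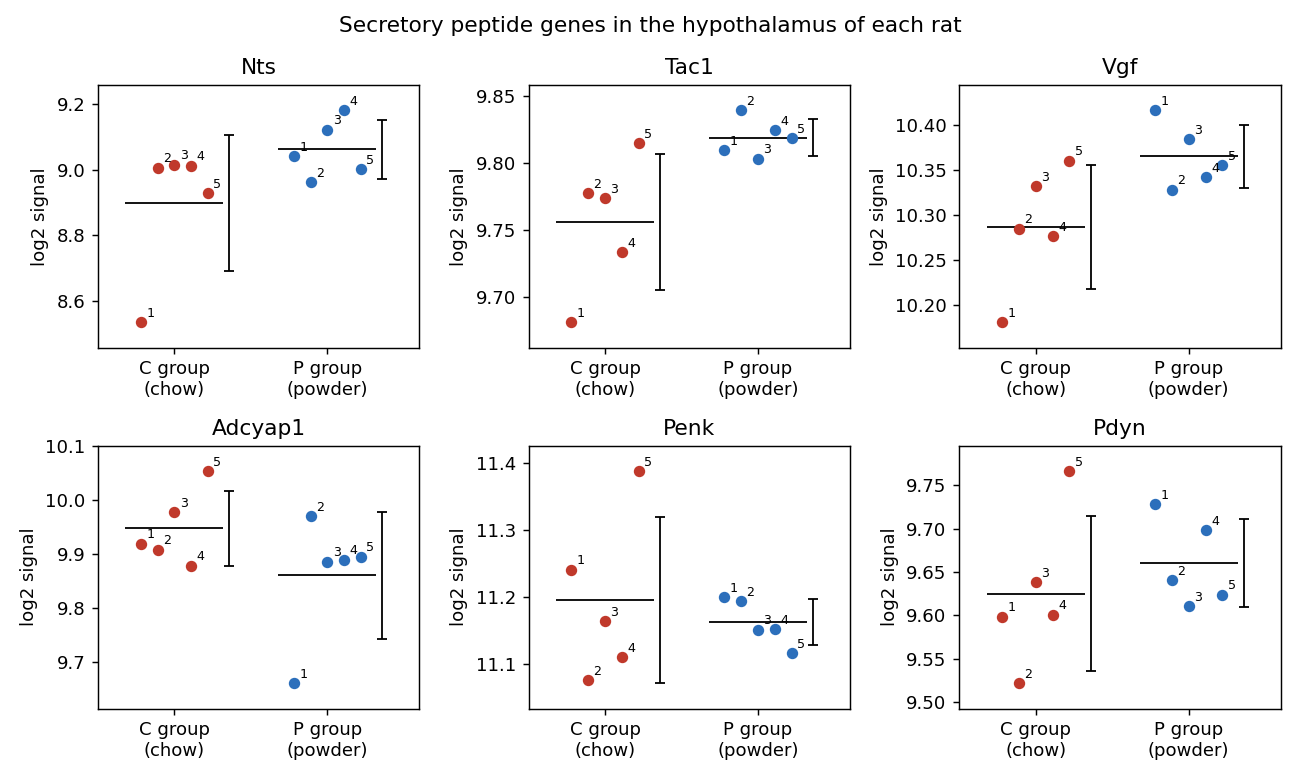
Log2 signal (vertical axes, each with its own range) of the varying probe set of each gene in the C group (left, red) and the P group (right, blue); each point is 1 rat with its number, horizontal lines are group means and bars 1 SD (5 rats per group). Chow 1 is lowest in Nts (8.53), Tac1 (9.68) and Vgf (10.18), and Powder 1 is lowest in Adcyap1 (9.66).

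Nts, the neurotensin gene (probe set 1380967_at), had the widest difference of the 6 genes and rested largely on a single low rat. Its log2 signal was 8.53, 9.01, 9.02, 9.01 and 8.93 in Chow 1 to Chow 5, against 9.04, 8.96, 9.12, 9.18 and 9.00 in Powder 1 to Powder 5. Chow 1 lay far below every other rat, 2 of 5 C rats lay below every P rat, and the remaining C rats overlapped with the P group. The C group averaged 8.90 ± 0.21 and the P group 9.06 ± 0.089 (SD, n = 5 each), a difference of -0.16 (SE 0.097), or 0.894 of the P level on the linear scale. Nts was called lower (FDR 0.0102), and its exact permutation p was 0.111 over the 252 assignments of 5 against 5 rats (two-sided), where the smallest possible is 0.00794. Without Chow 1 the difference was -0.071 and the call was lost, as it was without Powder 1, Powder 3 or Powder 4.

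Tac1, the substance P gene (1369309_a_at), had the smallest difference among the called members and the narrowest spread. It read 9.68, 9.78, 9.77, 9.73 and 9.81 in Chow 1 to Chow 5, against 9.81, 9.84, 9.80, 9.82 and 9.82 in Powder 1 to Powder 5. The P rats lay close together, and 4 of 5 C rats lay below all of them, with Chow 5 inside the P range. The C mean was 9.76 ± 0.051 against a P mean of 9.82 ± 0.014, and the difference of -0.063 (SE 0.023, FDR 0.0131) corresponds to 0.957 of the P level. The exact permutation p was 0.0238 with 5 rats per group. The limma p was 0.0230 before and 0.9995 after adjustment over all probe sets. Leaving out any single rat kept the difference between -0.077 and -0.044, and it was called in 8 of those 10 cases, all but those without Powder 2 or Powder 5.

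Vgf, the granule precursor (1368359_a_at), was lower in the C group in a similar way. Its signal was 10.18, 10.28, 10.33, 10.28 and 10.36 in Chow 1 to Chow 5, against 10.42, 10.33, 10.38, 10.34 and 10.36 in Powder 1 to Powder 5. Of the C rats, 3 of 5 lay below every P rat, and Chow 3 and Chow 5 lay within the P range. The C mean was 10.29 ± 0.069 and the P mean 10.37 ± 0.035, a difference of -0.078 (SE 0.033, FDR 0.0170) or 0.947 of the P level. Its exact permutation p was 0.0556 (5 rats per group), and its limma p was 0.0439 before adjustment. Without Chow 1 the difference was -0.052 and no longer called, and the call was also lost without Powder 1, Powder 3 or Powder 5.

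In each of Nts, Tac1 and Vgf, 5 of 5 C rats lay below the mean of the P group, and Chow 1 was the lowest of all 10 rats. Leaving out Chow 1 with Chow 4, the rats highest in leptomeningeal genes, gave -0.078 for Nts, -0.030 for Tac1 and -0.040 for Vgf, none called. Chow 1 and Chow 4 were the lowest rats of all in Tac1 and Vgf, so that leaving them out brings the C mean closer to the P mean by construction, whereas in Nts Chow 4 was among the higher C rats and the difference without it alone was -0.19. Rank products gave each of the 15 leptomeningeal genes a call for higher signal in C rats, against 0.941% of all probe sets. That method does not weigh spread, and by limma their unadjusted p-values lay between 0.0567 (Mgp) and 0.719 (Ptgds). Their mean deviations were -0.44 to 0.84 in C rats against -0.71 to 0.44 in P rats. Among C rats only Chow 1 and Chow 4 lay above the 10-rat mean, and among P rats only Powder 2 and Powder 3. The mean of these genes had r = -0.54 with Nts, -0.63 with Tac1 and -0.67 with Vgf over the 10 rats (adjusted permutation p = 0.389, 0.241 and 0.241). Without Chow 1 and Chow 4 these coefficients were -0.028 for Nts, 0.25 for Tac1 and -0.15 for Vgf. Whether the dissections differed in neighboring tissue, and whether such tissue has a part in these differences, was not tested.

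Adcyap1, the PACAP gene, was the called member with a higher C signal, through its varying probe set (1368892_at). The values were 9.92, 9.91, 9.98, 9.88 and 10.05 in Chow 1 to Chow 5, against 9.66, 9.97, 9.89, 9.89 and 9.89 in Powder 1 to Powder 5. Chow 3 and Chow 5 lay above every P rat, the other C rats mixed with the P rats, and Powder 1 lay far below all others. The C group averaged 9.95 ± 0.070 and the P group 9.86 ± 0.12, so that C exceeded P by 0.087 (SE 0.059, FDR 0.0384), or 1.06-fold. The exact permutation p was 0.167 with 5 rats per group. Without Powder 1 the difference was 0.037, and without Powder 1 and Chow 5 it was 0.011. The call held in 5 of 10 cases with a single rat left out, being lost without Chow 1, Chow 2, Chow 3, Chow 5 or Powder 1. The second probe set of the gene (1394908_at) was flat at 7.89 in all 10 rats (SD 0.000176) and was not called.

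Penk, the enkephalin precursor (1367949_at), was not called in either direction. It read 11.24, 11.08, 11.16, 11.11 and 11.39 in Chow 1 to Chow 5, against 11.20, 11.19, 11.15, 11.15 and 11.12 in Powder 1 to Powder 5. The C rats surrounded the P rats, with 2 above and 2 below all of them. The C group averaged 11.20 ± 0.12 and the P group 11.16 ± 0.035, and the difference of 0.033 had a 95% limma interval of -0.094 to 0.16 (exact permutation p = 0.635, 5 rats per group). Its sign rested on Chow 5, since without that rat it was -0.015.

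Pdyn, the dynorphin precursor, was not called either (1383294_at, FDR 0.0756 for lower). Its values were 9.60, 9.52, 9.64, 9.60 and 9.77 in Chow 1 to Chow 5, against 9.73, 9.64, 9.61, 9.70 and 9.62 in Powder 1 to Powder 5. Chow 5 was the highest and Chow 2 the lowest of all rats, as in Penk. The C mean was 9.63 ± 0.090 against a P mean of 9.66 ± 0.051, a difference of -0.035 with a 95% limma interval of -0.14 to 0.066 (exact permutation p = 0.492, 5 rats per group). Without Chow 5 it was -0.070 and was called lower, the only call that Pdyn had among the 10 cases with a rat left out. Its second probe set (1369882_at) was flat at 7.50 (SD 0.000154) and not called. There 4 of 5 C rats lay below every P rat, at a difference of only -0.00018 (exact permutation p = 0.0556, 5 rats per group).

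**Figure D2:**
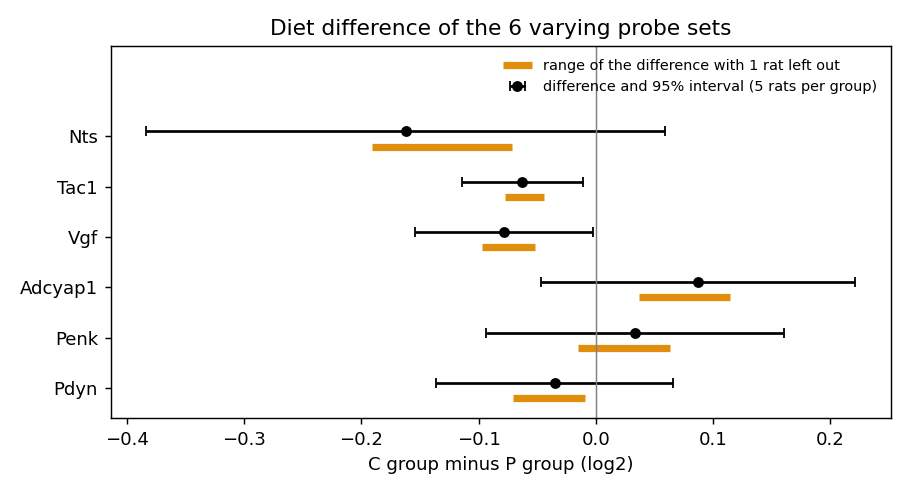
Difference of the C group minus the P group (horizontal axis, log2) for the varying probe set of each gene; black points and bars are the difference with its 95% limma interval (5 rats per group), and orange bars span the values obtained with 1 rat left out. The intervals of Tac1 (-0.11 to -0.011) and Vgf (-0.15 to -0.0027) lie below 0, those of the other 4 genes span it, and the orange bar crosses 0 in Penk alone. The intervals are not adjusted over probe sets, and the adjusted limma p of Tac1 and of Vgf was 0.9995.

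The precursors were also compared with each other across rats. Each of the 15 pairs of the 6 varying probe sets was correlated over the 10 rats, and 10 of the coefficients were positive, from -0.39 for Nts and Penk to 0.83 for Tac1 and Vgf. With permutation p-values adjusted over the 15 pairs, 0 pairs passed, and 4 had an unadjusted p below 0.05. The diet difference is part of these coefficients, so coefficients of deviations from the group means are given beside those described in detail.

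Tac1 and Vgf were lowest together in Chow 1 and next lowest together in Chow 4 (r = 0.83, permutation p = 0.00494, adjusted p = 0.0741; rho = 0.49, adjusted p = 0.468). Within the P group no such order was seen, as Powder 2 had the highest Tac1 and the lowest Vgf of these 5 rats. From the group means the coefficient was 0.71. Without Chow 1 alone it was 0.59, the lowest value with a single rat left out. Without Chow 1 and Chow 4 it was 0.30 over 8 rats, so that the relation rested on these rats together. Nts shared the low value of Chow 1, with r = 0.76 against Vgf and 0.72 against Tac1 (adjusted permutation p = 0.140 and 0.170) but rho = 0.45 and 0.13. From the group means r was 0.67 against Vgf and 0.61 against Tac1, and without Chow 1 and Powder 4 it was 0.32 and -0.21.

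The opioid precursors Penk and Pdyn had r = 0.73 (permutation p = 0.0170, adjusted p = 0.127) and rho = 0.61 (adjusted p = 0.246). Both were highest in Chow 5 and lowest in Chow 2, while Chow 1 was high in Penk and low in Pdyn. The coefficient was 0.82 from the group means. Leaving out Chow 5 alone gave 0.50, the lowest value with a single rat left out, and leaving out Chow 1 alone gave 0.83. Without Chow 1 and Chow 5 it was 0.81, a case that also drops the rat that ran against the relation. Adcyap1 had r between -0.31 and 0.37 with the other members over all 10 rats. From the group means its coefficients lay between -0.043 (Vgf) and 0.47 (Tac1, permutation p = 0.0740, adjusted p = 0.465). Those values depended on Chow 5, which was highest in Adcyap1, Penk and Pdyn, and on Powder 1, which was lowest in Adcyap1 but highest in Vgf and next to highest in Pdyn. Against Penk, r was 0.82 without Powder 1, -0.13 without Chow 5 and 0.45 without both rats. Against Pdyn it was 0.63, -0.53 and 0.13 in the same cases, so that both relations changed sign with the rat left out.

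**Figure D3:**
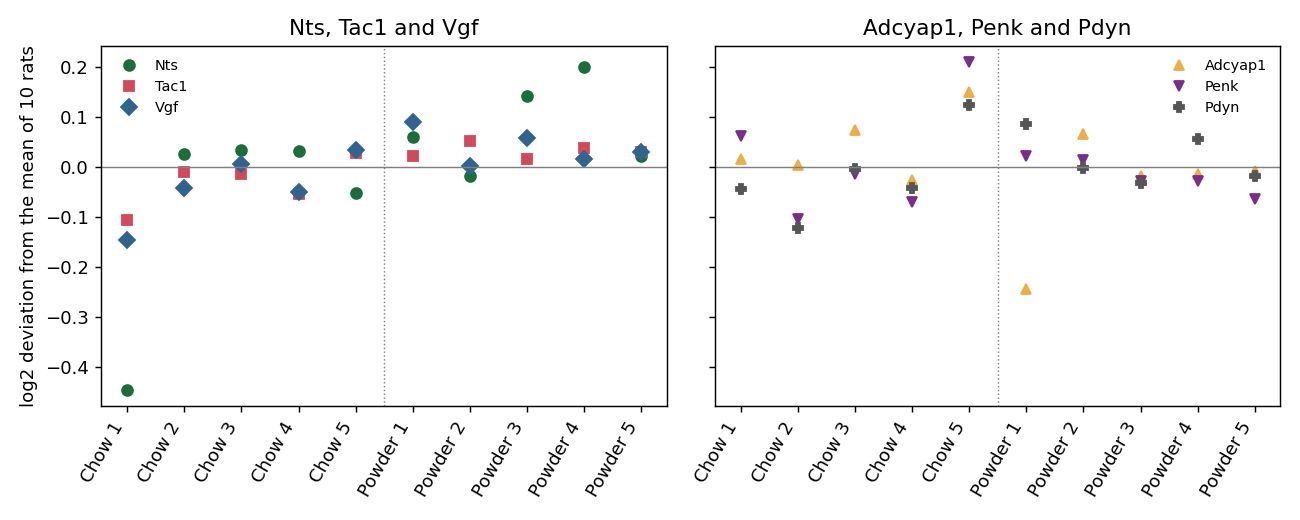
Deviation of each rat from the 10-rat mean (vertical axis, log2) for Nts, Tac1 and Vgf (left) and for Adcyap1, Penk and Pdyn (right), with C rats left of the dotted line and P rats right of it; each symbol is 1 gene. The genes of the left panel share their lowest value in Chow 1, and those of the right panel share their highest value in Chow 5, where Penk reads 11.39 and Pdyn 9.77.

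The genes most like each member over the 10 rats were taken from 1543 probe sets that name a single other gene and have an SD of at least 0.03, as a description with no test, since the highest of many coefficients is high by choice. Nts was followed by Pmch (r = 0.94), Hcrt, the orexin precursor (0.91), and Tppp3, a tubulin-binding protein gene (0.89). All of them dropped in Chow 1, and without that rat the coefficients were 0.69, 0.47 and 0.69. Tac1 was followed by Cd83, a membrane glycoprotein gene (0.88), Slc7a3, a transporter of cationic amino acids (0.88), and Gnas, the stimulatory G protein alpha subunit (0.87), with 0.75, 0.85 and 0.66 left without Chow 1. Gnas also came second for Vgf (0.93), after the protocadherin gene Pcdh17 (0.94) and before Tmem212 (0.86). Without Chow 1 they stood at 0.82 for Gnas, 0.87 for Pcdh17 and 0.67 for Tmem212.

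For Adcyap1 the nearest were Tst, the thiosulfate sulfurtransferase gene (0.83), Arpc4, a subunit of the actin-nucleating Arp complex (0.80), and Fxyd1, a regulator of the sodium pump (0.79). Without Powder 1 the coefficient of Tst was -0.11, and those of Arpc4 and Fxyd1 were 0.64 and 0.61. Penk was followed by Rbm24, an RNA-binding protein gene (0.95), Fam227a (0.90) and Itih3, an inter-alpha-trypsin inhibitor chain (0.89), and these were 0.88, 0.74 and 0.72 without Chow 5. Pdyn was followed by Hap1, the huntingtin-associated protein gene (0.92), Calb1, the calcium buffer calbindin (0.89), and Caly, a vesicle protein of neurons (0.88), and they stayed at 0.82 to 0.89 without Chow 5.

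The members were then set against lists of cell type markers, each scored per rat as the mean deviation of its varying genes. Over 54 pairs of a member and a list, only the pair of Penk and the oligodendrocyte genes passed adjustment (r = -0.83, permutation p = 0.00059, adjusted p = 0.0319; rho = -0.93, adjusted p = 0.0173). Oligodendrocytes form the myelin of the brain, and the list held Mbp, Mog, Mag, Mobp and Cnp, all of them varying and 0 of them called between the diets. Their mean deviation was -0.11, 0.17, -0.023, 0.22 and -0.21 in Chow 1 to Chow 5, against -0.14, -0.10, 0.094, 0.097 and 0.0064 in Powder 1 to Powder 5. Chow 5 had the highest Penk and the lowest myelin genes, while Chow 2 and Chow 4 had the lowest Penk and the highest myelin genes. Without Chow 4 and Chow 5 the coefficient was -0.84, with any single rat left out it lay between -0.86 and -0.80, and it was -0.87 from the group means. Pdyn showed -0.67 against the same list (adjusted permutation p = 0.241, 10 rats). What the share of white matter in the dissections has to do with the levels of Penk and Pdyn was not tested.

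**Figure D4:**
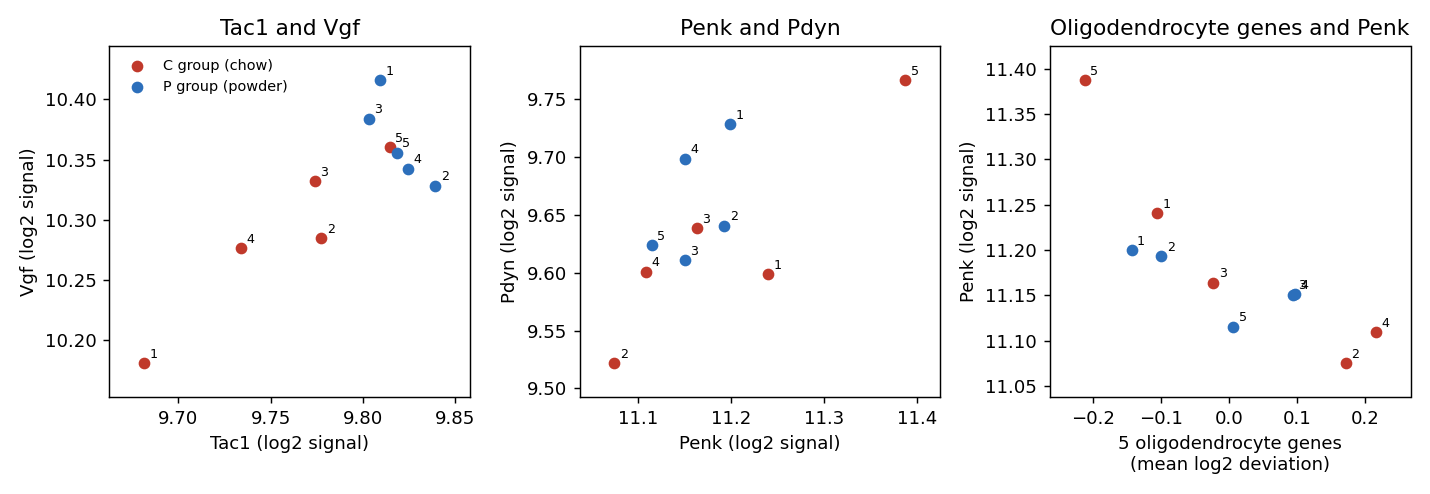
Vgf against Tac1 (left) and Pdyn against Penk (middle), both as log2 signals, and Penk (log2 signal) against the mean log2 deviation of 5 oligodendrocyte genes (right); each point is 1 rat with its number, in red for the C group and blue for the P group. Chow 1 and Chow 4 stand at the low end of the left panel (r = 0.83 over 10 rats, 0.30 without them), while the slope of the right panel (r = -0.83) runs through rats of both diets.

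Penk and Pdyn, like Tac1, are also made in large amounts by striatal neurons, which lie close to the hypothalamus. Of 8 measured striatal markers 0 were called and 6 were flat, and the mean of the other 2 lay between -0.076 and 0.10 among C rats, against -0.12 to 0.046 among P rats, with r = 0.27 against Penk, 0.31 against Pdyn and -0.23 against Tac1. Without Chow 3 and Powder 2 these were 0.61, 0.57 and 0.11. The cortical and hippocampal list, in which 2 of 8 measured genes were called higher and 1 lower, gave r = -0.91 against Nts (adjusted permutation p = 0.241, 10 rats) and -0.25 without Chow 1 and Powder 1. For the list of hypothalamic neurons, in which 1 of 11 measured genes was called higher and 6 lower, r was 0.73 against Tac1 and 0.76 against Vgf (adjusted permutation p = 0.241 each, 10 rats), and 0.51 and 0.13 without Chow 1 and Powder 1. The astrocyte list, in which Gfap and Aqp4 were called higher (2 of 5 genes), averaged -0.054 to 0.21 in C rats, highest in Chow 1, against -0.11 to -0.0062 in P rats. Its r was -0.78 against Nts, -0.67 against Tac1 and -0.77 against Vgf (adjusted permutation p = 0.241 each, 10 rats), and -0.13, -0.012 and 0.055 without Chow 1 and Powder 1. The lists of thalamic neurons, choroid plexus and anterior pituitary, scored on only 2, 1 and 2 varying genes, gave 0 pairs with a member that passed. Called higher were 1 of 8 measured thalamic, 1 of 6 choroid plexus and 2 of 7 pituitary genes, and 1 thalamic gene was called lower. The pituitary score was 2.11 in Chow 4 and 0.95 in Chow 5, and below 0 in all other rats. The microglial list could not be scored because 0 of its 5 genes had an SD above 0.1. Beside the calls in these lists, 0.941% of all probe sets were called higher and 0.818% lower. Whether these cells have a part in the member differences was not tested.

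The probe sets read for the receptors on which the peptides act showed almost no variation, as did 92.6% of all probe sets. Each receptor gene was read from its brightest probe set, and further probe sets of some of them were not examined. All 14 listed receptor genes, among them the neurotensin receptors Ntsr1 and Ntsr2, the neurokinin receptors Tacr1 to Tacr3, the PACAP receptor Adcyap1r1 and the opioid receptors Oprm1, Oprd1 and Oprk1, were flat under an SD of 0.001, with a median difference of 2.54e-05, and 0 were called. The difference of the widest of them, that of the neurokinin B receptor Tacr3, was -0.000347 (SE 0.000139). A flat value after this summarization gives no measure of the diet difference. Of 15 measured genes for precursor processing and granules, 10 were flat and 1 was called lower, against 0.818% of all probe sets. This was Qpct, the enzyme that forms the pyroglutamate end of peptides such as neurotensin. Qpct was lower in the C group at -0.10 (SE 0.090, FDR 0.0146), with 9.24 to 9.67 in C rats against 9.42 to 9.74 in P rats, so that the groups overlapped. The other genes above the flat limit, Ctsl, Cadps2, Pcsk1n and Scg2, differed by 0.042, 0.011, -0.0022 and -0.0030 and were not called.

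Among 27 measured precursors of other neuropeptides, 3 were called higher and 7 lower by rank products, against 0.941% and 0.818% of all probe sets. Of the 27, 13 were flat, and the median difference was -4.88e-05. The limit given for the members holds here too, as genes that vary at all outrank the flat majority. By limma, 0 of all probe sets passed adjustment. Higher in the C group were Vip by 0.60 (SE 0.40), Cck by 0.20 (SE 0.14) and Nmu by 0.20 (SE 0.20), the genes of vasoactive intestinal peptide, cholecystokinin and neuromedin U. Lower were Oxt at -0.25, Hcrt at -0.23, Pmch at -0.21, Crh at -0.18, Avp at -0.13, Cartpt at -0.097 and Trh at -0.088, with SEs between 0.052 and 0.22. Gal, Sst, Npy and Npvf, which also varied, differed by -0.035, -0.061, 0.10 and 0.021 and were not called. Adcyap1 thus shared its direction with Vip, a peptide of the same family, but also with Cck and Nmu. Whether Adcyap1 and Vip vary together across rats was not tested. Nts shared its direction with every precursor called lower here, among them Hcrt and Pmch of the lateral hypothalamus. Both were also low in Chow 1, which was not particular to them, since Tac1, Vgf and Qpct were lowest in that rat too. Of 16 measured activity-regulated genes, 12 were flat, and the median difference was 1.8e-05. Fos was called lower at -0.13 (SE 0.13) and Egr4 higher by 0.23 (SE 0.24). Egr1 and Nr4a2, which also varied, differed by 0.098 (SE 0.17) and 0.050 (SE 0.10) and were not called. The mean deviation of these varying genes was highest in Chow 1, at 0.46.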

How the data were processed

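Hypothalamic RNA of 10 rats, 5 per group, was read on 1 GeneChip Rat Genome 230 2.0 array per rat. With R 2.7.2 the authors condensed each probe set into a log2 signal by factor analysis (FARMS), and these deposited signals were used without change. Arrays have no read depth, so their number limits the precision. The labels do not say whether rats shared a litter or cage. Columns were matched to rats by identifier (0 unmapped), and 57 hybridization controls among the 31099 probe sets were dropped. Gene names came from the annotation of the array, and each listed gene was represented by its brightest probe set.

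The members and lists were chosen with earlier results of these data known. The diet difference was tested with rank products (25 pairs, 100 permutations, FDR below 0.05) in Python 3.11.15 (numpy 2.4.6, pandas 2.3.3, scipy 1.17.1). It was also tested with limma 3.58.1 in R 4.3.3 (Benjamini-Hochberg over 31042 probe sets) and with exact permutation tests over all assignments of rats. The exact p-values were not adjusted over the members. Correlations used 100000 resamples. Scripts were tested on simulated data, and drawings were made with matplotlib 3.10.9. Besides the members, named genes were the 3 most correlated with each member, the called genes of each pathway list (otherwise the largest difference) and the markers of highest level. Gal, Sst, Npy, Npvf, Ctsl, Cadps2, Pcsk1n, Scg2, Pomc, Nr5a1, Otp, Egr1 and Nr4a2 were added after their values were seen. So were the markers and receptors named without values. Unmatched in the lists were Pcsk1, Cort, Agrp, Kiss1, Nms, Qrfp, Ucn3, Npb and Npas4, and among cell type markers Plekhg1, Agrp, Gsx1, Lhx6, Lhx8, Clic6, Slc4a5 and some that are not reported here.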

Additional observations from a re-analysis of the deposited data

Results flagged for a closer look

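In 12 groups of 5 rats (6 varying probe sets in each diet group), 2 held a rat that stood apart by Dixon's criterion, where chance alone gives about 1 group in 20. Nts was 8.53 in Chow 1, and the gap to the next C rat (8.93 in Chow 5) took 0.820 of the range of the group. Adcyap1 was 9.66 in Powder 1, with a gap to the next P rat (9.89 in Powder 3) of 0.727 of the range.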

How the results depend on the processing

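The number of member probe sets called by rank products was 4, and it was 1 with a filter on mean level above the median, 0 with an SD above 0.01, 0 at an FDR below 0.01, 0 by rank sums, 0 after scaling by the within-group SD, 0 without Chow 1 and Chow 4, 2 without Chow 5 and Powder 1 (chosen after seeing the data) and 1 to 4 with 1 rat left out. It stayed at 4 with quantile normalization, median centring and ratios of the log2 values (chosen after seeing the data). With 1 rat left out, Nts and Vgf were called in 6 of 10 cases, Tac1 in 8 and Adcyap1 in 5, and each kept its direction, with Nts at -0.19 to -0.071 and Adcyap1 at 0.037 to 0.11. Nts lost its call without Chow 1, Powder 1, Powder 3 or Powder 4, Vgf without Chow 1, Powder 1, Powder 3 or Powder 5, and Tac1 without Powder 2 or Powder 5. Penk ranged from -0.015 (without Chow 5) to 0.063 with 1 rat left out and was -0.0054 without Chow 5 and Powder 1, never called. Limma called 0 members under each alternative run.

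Calls over all probe sets numbered 292 higher and 254 lower, 119 to 355 and 120 to 327 with 1 rat left out, 123 and 139 without Chow 5 and Powder 1, and 49 higher and 251 lower without Chow 1 and Chow 4. Of the 15 member pairs, 0 passed, 1 with quantile normalization (Tac1 and Vgf, r = 0.87) and 0 to 1 with a rat left out (Penk and Pdyn at 0.83 without Chow 1, Tac1 and Vgf at 0.90 without Powder 2). The cause of these changes was not tested. The labels do not say whether equal replicate numbers pair the rats. Same-numbered rats correlated between -0.33 and 0.28 in their deviations, and 1 of 10 rats correlated best with its own number. So few values cannot decide whether such rats were handled together. With the replicate block, Adcyap1 lost its call and 3 member probe sets were called.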
